A study of Homo sapiens with 6 samples.

Results

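The genes described here are 10 components or regulators of the neuronal microtubule cytoskeleton, with 1 growth cone protein among them: the beta tubulins *TUBB3* and *TUBB2B*, the microtubule-associated proteins *MAP2*, *MAPT*, *MAP1B* and *DCX*, the stathmins *STMN2*, *STMN3* and *STMN4*, and the growth cone gene *GAP43*. All probe sets annotated to exactly 1 of these symbols were taken, which gave 38 of 49393 probe sets besides the manufacturer's controls, for 10 of 18244 symbols measured in this way. No probe set with several symbols included any of the 10. All samples came from the human neuroblastoma line SH-SY5Y, which serves as a model of sympathetic neuronal precursors. The cells were grown with 10% serum and transfected 24 hours after seeding with 15 pM of an inhibitor of the microRNA miR-137 (anti-miR-137, 3 arrays) or with the same amount, as the labels give it, of a control anti-miR (3 arrays), and total RNA was taken 72 hours later. Both groups thus carried a transfected oligonucleotide, and no untransfected cells are among the samples. The stated aim was a search for further targets of miR-137 by its knock-down. The arrays were numbered 1 to 3 in each group, the labels do not say what a shared number stands for, and nothing says that the replicates came from separate cultures, so p-values refer only to array-to-array spread, part of which may be technical.

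Microtubules are hollow polymers of alpha and beta tubulin that fill axons and dendrites and carry their transport. Neurons use particular beta tubulin isotypes, microtubule-associated proteins that stabilise or space the polymers, and stathmins, which bind free tubulin dimers and favour disassembly. These genes are widely used as markers of neuronal commitment and neurite growth, also in neuroblastoma lines. The microRNA miR-137 is abundant in brain, and microRNAs pair mainly through their seed, bases 2 to 8, with sites in mRNAs that they repress. The mature sequence of miR-137 is shown because it is the target of the inhibitor (RefSeq, GRCh38.p14, chr1:98046091-98046113, minus strand, with the seed in capitals).
hsa-miR-137-3p: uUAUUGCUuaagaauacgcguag

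Markers of the labelled cell type were looked up. Of 15 listed markers of noradrenergic neuroblastoma, 13 had a probe set with 1 symbol, and all 13 passed the brightness filter given below. So did 12 of 15 mesenchymal markers, and 12639 of 18244 symbols had a probe set that passed, so passing does not by itself identify the cells. The noradrenergic markers included *PHOX2A*, *HAND2* and *GATA3*, transcription factors of the sympathetic lineage, and *DBH*, an enzyme of noradrenaline synthesis. Of 12 glial and Schwann cell markers, 4 were kept (*GFAP*, *OLIG2*, *S100B* and *SOX10*), and none of these passed in a comparison below. *OLIG2*, a transcription factor of oligodendrocytes, was near the filter value, with 6.02, 6.06 and 5.96 in anti-miR-137 arrays and 5.73, 5.80 and 5.71 in control arrays. The level of miR-137 itself was not analysed here. Values are RMA log2 values per probe set, so that 1 unit is a doubling of signal. They are compared here between arrays for the same probe set and never between probe sets. A probe set was kept for testing when its 6-array mean was at or above a log2 value of 5.69, the 40th percentile. This kept 29636 probe sets in all and 32 of the 38 of the 10 genes. The 6 left out were 2 of *MAPT* and 1 each of *DCX*, *STMN3*, *STMN4* and *GAP43*.

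None of the kept probe sets of these genes passed the test between anti-miR-137 and control cells. The fit had no term for the replicate number, so differences between numbers counted as spread in it. All 32 kept probe sets had an adjusted p of 1.00 in limma, with Benjamini-Hochberg adjustment over the 29636 kept probe sets. Of all kept probe sets, 0 passed (0%). At an unadjusted p under 0.05 none of the 32 was called, against 2.51% of all kept probe sets, and the smallest unadjusted p of the 32 was 0.052 in limma. The differences, anti-miR-137 minus control, ran from -0.25 to 0.25 log2 units with a median of -0.038 and 24 of 32 (75%) below 0, where 50.6% of all kept probe sets lay below 0. Over all kept probe sets the median was -0.0013. For 29 of the 32 (90.6%) the 95% confidence interval lay within 0.5 log2 units of 0, as it did for 93.8% of all kept probe sets, and the other 3 were the probe sets of *STMN4*. The groups did not overlap for 1 probe set that was lower in anti-miR-137 cells and for 2 that were higher, where 3.27% and 3.66% of all kept probe sets fell that way.

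**Figure D1:**
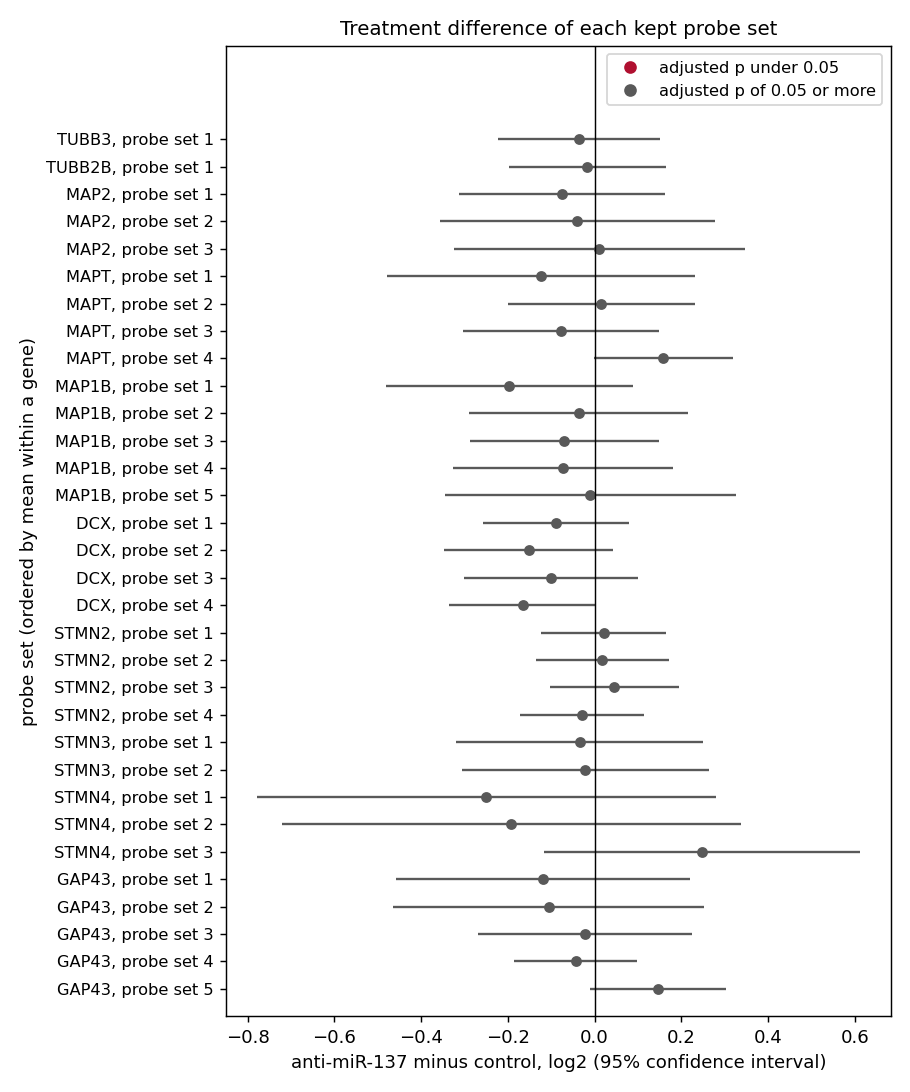
Difference between anti-miR-137 and control arrays (x axis, log2 units) for the 32 kept probe sets (y axis, numbered by falling mean within a gene). Points are differences of means over 3 arrays each and bars are 95% confidence intervals from limma. All 32 intervals include 0, and those of *STMN4* are the widest.

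The same genes differed more between arrays that carried different replicate numbers. Of the 32 kept probe sets, 28 (87.5%) had higher means in the 2 arrays of replicate 3 than in the 2 of replicate 1, against 51.9% of all kept probe sets, with a median difference of 0.17 log2 units beside 0.0086. With group as a term in the model, 5 of the 32 (15.6%) were higher in replicate 3 at an adjusted p under 0.05 in limma, against 3.19% of all kept probe sets. None was lower, against 1.73% of all. Calls in either direction made up 4.92% of all. Both arrays of replicate 3 lay above both of replicate 1 for 19 of the 32 (59.4%), against 32.8% of all, and the difference was positive in both treatments for 20 (62.5%), against 38.6%. The highest of the 6 values was in a replicate 3 array for 22 (68.8%), against 40% of all, and the lowest in a replicate 1 array for 18 (56.2%), against 36.3%. The 5 were 2 probe sets each of *MAP2* and *GAP43* and 1 of *STMN4*. Several probe sets share a gene, and the genes were chosen with earlier results of these data known, so these shares are descriptions. In the F test over all 3 numbers none of the 32 passed, against 0.0101% of all kept probe sets, and their smallest adjusted p in limma was 0.078. At an unadjusted p under 0.05 in that test there were 15 of the 32 (46.9%), against 21.4% of all. Neither replicate 2 against replicate 1 nor replicate 3 against replicate 2 gave a call among the 32, and over all kept probe sets these contrasts called 0% and 0.00337%. At an unadjusted p under 0.05 they gave 3 (9.38%) and 11 (34.4%) of the 32, against 12% and 14.7% of all kept probe sets, so that the first lies below the background.

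The calls between replicates 3 and 1 depended on which arrays entered the fit and on its settings. Without either array of replicate 1, or without either array of replicate 3, none of the 32 passed in limma, and none of the 29636 did. Between 12 and 15 of the 32 had an unadjusted p under 0.05 in these fits, beside 4313 to 6325 of the 29636. Without either array of replicate 2, 10 of the 32 passed, beside 2995 of the 29636. When 1 array was left out in turn, the differences of the highest-mean probe sets ran from 0.60 to 0.80 for *STMN4*. They ran from 0.35 to 0.50 for *GAP43* and from 0.27 to 0.29 for *MAP2*, while those of *MAP1B* and *STMN2* changed sign. With the RNA integrity number as a covariate none of the 32 passed, and none of the 29636 did. The covariate adds a term to a fit of only 6 arrays, so lost precision and a part of RNA integrity cannot be told apart. In the fit with this covariate the differences of the highest-mean probe sets equalled those between the control arrays alone, 0.70 for *STMN4* and 0.49 for *GAP43*. With no filter on dim probe sets 0 of 38 passed, beside 3 of 49393.

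**Figure D2:**
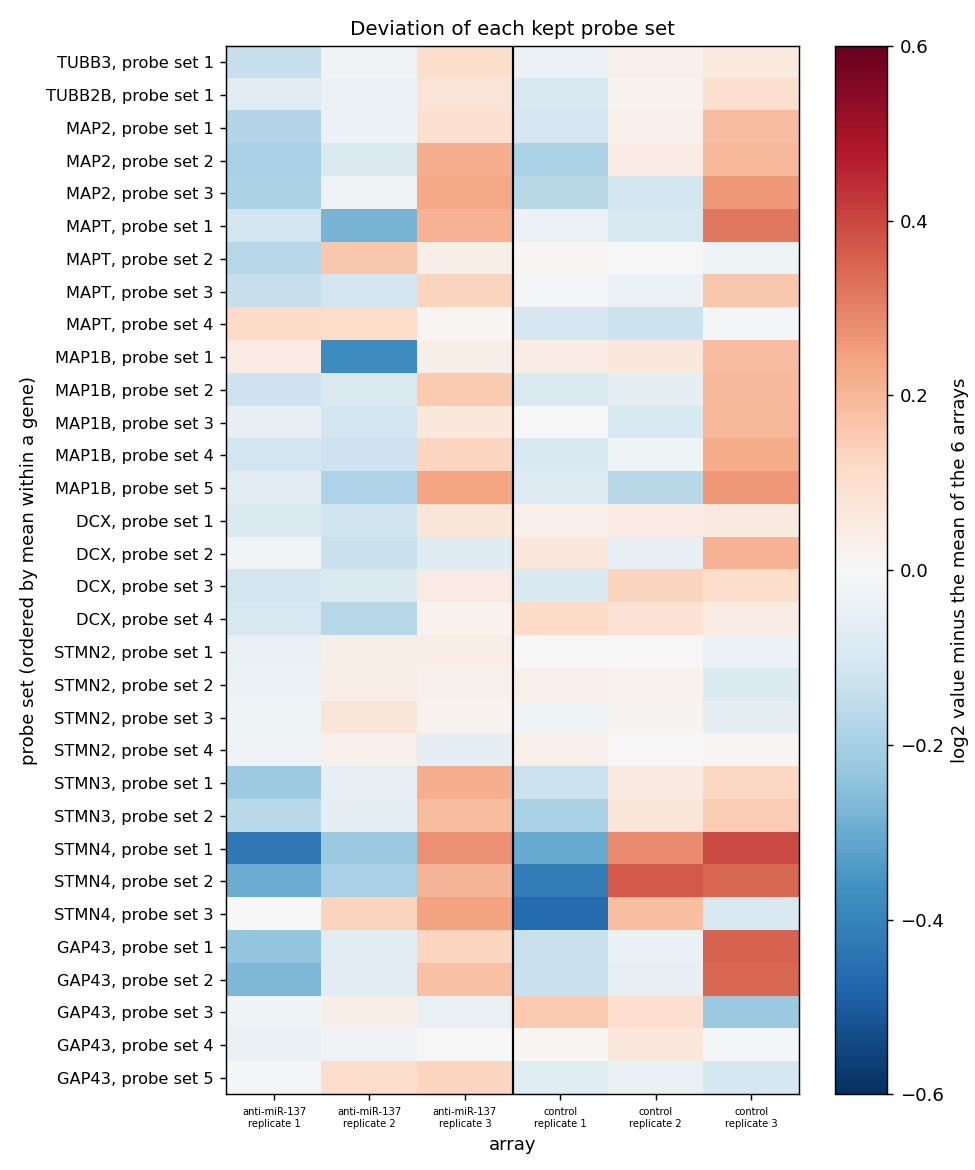
Deviation of each kept probe set (rows, numbered by falling mean within a gene) from its mean over the 6 arrays (colour, log2 units), with anti-miR-137 arrays left of the line and control arrays right of it. Both arrays of replicate 3 are red for most rows of *MAP2*, *MAP1B*, *STMN3* and *STMN4*, while the 4 rows of *STMN2* stay close to white.

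The tubulins differed little. *TUBB3*, the neuronal class III beta tubulin and a standard marker of neurons, was measured by 1 probe set, with 11.88, 12.00 and 12.12 in the anti-miR-137 arrays of replicates 1, 2 and 3 and 11.98, 12.05 and 12.08 in the control arrays. The groups overlapped, and both arrays of replicate 3 were above both of replicate 1. *TUBB3* averaged 12.00 ± 0.12 over the anti-miR-137 arrays and 12.03 ± 0.050 over the control arrays (SD, n = 3), a difference of -0.04 with a 95% confidence interval from -0.22 to 0.15. *TUBB2B*, a beta tubulin of developing neurons, gave 11.90, 11.93 and 12.04 in anti-miR-137 arrays and 11.87, 11.99 and 12.06 in control arrays. The same arrangement was seen, with a treatment difference of -0.02 (interval -0.20 to 0.16). Replicate 3 minus replicate 1 was 0.17 for both genes, with adjusted p of 0.20 for *TUBB3* and 0.18 for *TUBB2B* in limma. Both probe sets carry the suffix that marks possible cross-hybridisation, and tubulin genes are close in sequence, so signal of other tubulins cannot be told apart from theirs. The second probe sets of *STMN2*, *STMN3*, *STMN4* and *GAP43* and the fifth of *GAP43* carry this suffix too.

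*MAP2*, which stabilises microtubules in dendrites, had 3 kept probe sets that moved alike. The highest-mean one gave 11.41, 11.55 and 11.68 in anti-miR-137 arrays and 11.48, 11.62 and 11.77 in control arrays. The groups overlapped, but both arrays of replicate 3 stood above the other 4. The treatment difference was -0.08 with an interval from -0.31 to 0.16. Replicate 3 minus replicate 1 was 0.28 ± 0.064 (SE; adjusted p = 0.068 in limma). The second probe set gave 10.65, 10.76 and 11.07 in anti-miR-137 and 10.66, 10.90 and 11.05 in control arrays. It was higher in replicate 3 than in replicate 1 by 0.40 ± 0.073 (SE; adjusted p = 0.046 in limma). The third, at 7.97, 8.14 and 8.39 in anti-miR-137 and 7.99, 8.05 and 8.42 in control arrays, was higher by 0.42 ± 0.070 (SE; adjusted p = 0.040 in limma). The rise was nearly equal in both treatments for the third, 0.42 between the anti-miR-137 arrays and 0.43 between the control arrays.

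*MAPT*, which encodes the axonal protein tau, gave probe sets that disagreed. The highest-mean one measured 7.96, 7.79 and 8.28 in anti-miR-137 arrays and 8.04, 7.97 and 8.39 in control arrays. Both arrays of replicate 3 were the highest, and the anti-miR-137 array was the lower one within every number, with a mean difference of -0.12 (interval -0.48 to 0.23). Replicate 3 minus replicate 1 was 0.34 (adjusted p = 0.055 in limma). The fourth kept probe set ran the other way between treatments, with 6.46, 6.46 and 6.36 in anti-miR-137 arrays and 6.24, 6.21 and 6.34 in control arrays. All 3 anti-miR-137 values were above all 3 control values, a difference of 0.16 with an interval from -0.0019 to 0.32 and an adjusted p of 1.00 in limma. This probe set showed no difference between the numbers beyond its error, at -0.0042 for replicate 3 minus replicate 1. The other 2 kept probe sets had treatment differences of 0.02 and -0.08.

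*MAP1B*, an early axonal microtubule-associated protein, had lower means in anti-miR-137 cells on all 5 probe sets, from -0.20 to -0.0098, and none passed the test. The highest-mean probe set gave 11.62, 11.19 and 11.60 in anti-miR-137 arrays and 11.61, 11.63 and 11.75 in control arrays. The anti-miR-137 array of replicate 2 alone was low there, by 0.45 against the control array of its number. The other 4 probe sets showed no such gap in replicate 2: their anti-miR-137 minus control differences in that number lay between -0.10 and -0.02. All 5 probe sets had higher means in replicate 3 than in replicate 1, by 0.06 to 0.32, and the smallest adjusted p was 0.055 in limma. *DCX*, doublecortin, a microtubule-binding protein of migrating neurons, also had lower means in anti-miR-137 cells on all 4 kept probe sets, from -0.17 to -0.09. Its highest-mean probe set gave 9.52, 9.49 and 9.68 in anti-miR-137 arrays and 9.64, 9.66 and 9.66 in control arrays, which overlap. On the fourth probe set the groups were apart, with 7.67, 7.60 and 7.79 in anti-miR-137 arrays and 7.88, 7.86 and 7.82 in control arrays, a difference of -0.17 with an interval from -0.34 to 0.0042 (adjusted p = 1.00 in limma). Its differences between replicates 3 and 1 ran from 0.02 to 0.18, and none passed.

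The 3 stathmins parted company. *STMN2*, which is needed for axon growth and repair, varied least: its highest-mean probe set gave 13.90, 13.98 and 13.99 in anti-miR-137 arrays and 13.95, 13.95 and 13.91 in control arrays. All 4 of its probe sets stayed within 0.046 log2 units between treatments and within 0.028 between replicates 3 and 1, with intervals for that second difference no wider than -0.21 to 0.19. The probe sets read between 13.56 and 13.99, where the highest value of any probe set was 15.3. Whether the signal is compressed at such levels was not tested. *STMN3*, another neural stathmin, gave 11.41, 11.58 and 11.85 in anti-miR-137 arrays and 11.50, 11.68 and 11.75 in control arrays, with both arrays of replicate 3 the highest. Its 2 kept probe sets differed by -0.03 and -0.02 between treatments and by 0.34 and 0.35 between replicates 3 and 1 (adjusted p = 0.068 and 0.061 in limma).

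*STMN4*, a stathmin of the nervous system, had the widest spread of the 10 genes. Its highest-mean probe set gave 7.74, 7.95 and 8.45 in anti-miR-137 arrays and 7.87, 8.45 and 8.56 in control arrays. Both arrays of replicate 1 were low, both of replicate 3 were high, and in replicate 2 the control array was 0.50 above the anti-miR-137 array. Replicate 3 was above replicate 1 by 0.70 ± 0.11 (SE; adjusted p = 0.039 in limma), with 0.70 between the anti-miR-137 arrays and 0.70 between the control arrays. The treatment difference was -0.25, with an interval from -0.78 to 0.28. A second probe set gave -0.19 for treatment and 0.63 for replicate 3 minus replicate 1 (adjusted p = 0.082 in limma). The third kept probe set, at 5.95, 6.09 and 6.19 in anti-miR-137 arrays and 5.49, 6.13 and 5.86 in control arrays, gave a treatment difference of 0.25 in the other direction. Of the 3 kept probe sets of *STMN4*, 2 were thus lower with the inhibitor and 1 was higher. The third lay close to the filter value of 5.69, with the control array of replicate 1 below it.

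*GAP43*, a membrane-attached protein of growth cones that is a protein kinase C substrate, split in the same way by probe set. The highest-mean one gave 10.10, 10.27 and 10.47 in anti-miR-137 arrays and 10.21, 10.30 and 10.70 in control arrays. Within every number the anti-miR-137 array was the lower one, while the groups overlapped, and the difference was -0.12 (interval -0.46 to 0.22). Replicate 3 was above replicate 1 by 0.42 ± 0.077 (SE; adjusted p = 0.045 in limma). The second probe set, with 10.07, 10.28 and 10.52 in anti-miR-137 and 10.21, 10.29 and 10.68 in control arrays, was higher by 0.46 ± 0.073 (SE; adjusted p = 0.038 in limma). It carries the suffix for possible cross-hybridisation, and its values lay close to those of the first. The third gave 8.20, 8.26 and 8.18 in anti-miR-137 and 8.38, 8.33 and 7.998 in control arrays, and was lower in replicate 3 than in replicate 1 by a difference of -0.20 (adjusted p = 0.27 in limma). The fifth probe set ran against the first for treatment, with 5.81, 5.92 and 5.95 in anti-miR-137 arrays and 5.75, 5.78 and 5.71 in control arrays. All 3 anti-miR-137 values were above all 3 control values and the anti-miR-137 array was the higher one in every number, a difference of 0.15 with an interval from -0.011 to 0.30 (adjusted p = 1.00 in limma). Of the 5 kept probe sets of *GAP43*, 4 thus had lower means with the inhibitor and 1 a higher one, so the direction was not shared by all. The fifth lay close to the filter value of 5.69. The fourth and the fifth lay within 0.051 between replicates 3 and 1. Averaging the 5 kept probe sets gave 0.15 (adjusted p = 0.16 in limma).

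**Figure D3:**
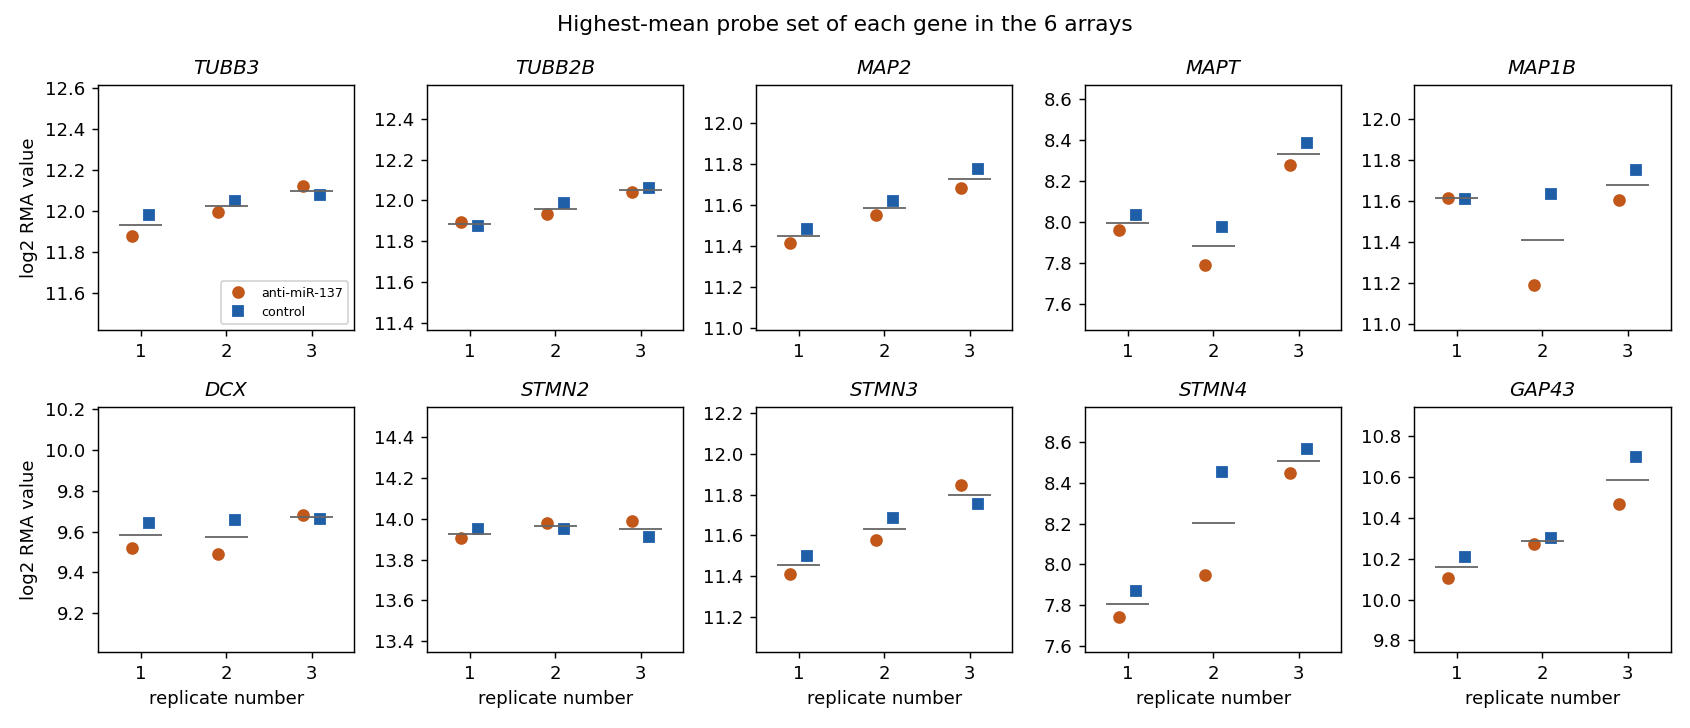
Log2 values (y axis, each panel spanning the same range around its gene's mean) of the highest-mean kept probe set of each gene by replicate number (x axis), with anti-miR-137 arrays as circles left of control arrays as squares and the mean of each number as a line. For *GAP43* both arrays of replicate 3 are the highest, for *STMN4* the control array of replicate 2 lies level with the anti-miR-137 array of replicate 3, and *STMN2* is nearly level.

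Within a replicate number, the anti-miR-137 array was below the control array in all 3 numbers for 12 of the 32 probe sets (37.5%), against 14.1% of all kept probe sets, and above it in all 3 for 3 (9.38%), against 13.7%. The 12 were probe sets of *DCX*, *MAP1B*, *GAP43*, *MAPT*, *MAP2* and *STMN4*, and none passed the test. With the replicate number as a block, 0 of the 32 probe sets passed for treatment in limma, beside 0 of the 29636. An unadjusted p under 0.05 was found in that fit for 1 of the 32, beside 1776 of the 29636. The size of the difference between replicates 3 and 1 exceeded that between treatments for 24 of the 32 (75%), against 73.1% of all kept probe sets, so that this order was common to the arrays as a whole. Means of 2 arrays entered the first difference and means of 3 the second, so their errors differ.

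**Figure D4:**
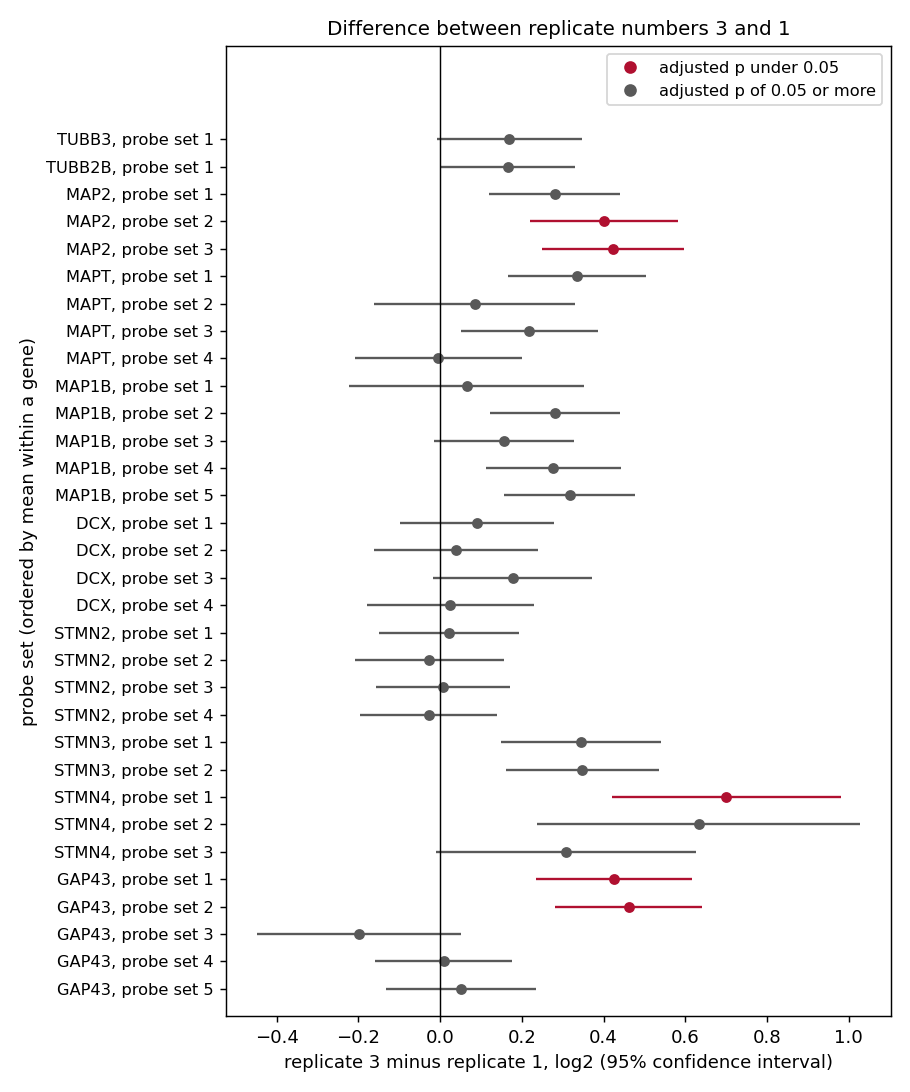
Difference between the arrays of replicate 3 and those of replicate 1 (x axis, log2 units) for the 32 kept probe sets (y axis, numbered by falling mean within a gene), with 95% confidence intervals from limma and group as a term. The 5 red probe sets of *MAP2*, *STMN4* and *GAP43* passed at an adjusted p under 0.05, the largest at 0.70, and *STMN2* lies at 0.

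Promoter sequences are given for 4 of these genes, 2 with calls between replicates 3 and 1 (*GAP43* and *MAP2*) and 2 without (*STMN3* and *TUBB2B*) as examples. The windows run from 250 bases before to 50 bases after a start site (RefSeq, GRCh38.p14), and capitals mark matches to CANNTG, the E-box bound by basic helix-loop-helix factors, to CCAAT, or to TATAAA, on either strand. No matches overlapped. For *MAP2* 1 of 3 windows is shown, and the arrays do not tell which start was used.
GAP43, chr3:115623260-115623559, plus strand: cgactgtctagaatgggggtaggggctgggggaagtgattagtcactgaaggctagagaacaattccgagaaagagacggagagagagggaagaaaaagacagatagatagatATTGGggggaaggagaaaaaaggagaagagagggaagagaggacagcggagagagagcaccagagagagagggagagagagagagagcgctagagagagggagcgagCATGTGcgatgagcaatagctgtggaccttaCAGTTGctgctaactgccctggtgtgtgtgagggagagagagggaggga
MAP2, chr2:209579357-209579656, plus strand: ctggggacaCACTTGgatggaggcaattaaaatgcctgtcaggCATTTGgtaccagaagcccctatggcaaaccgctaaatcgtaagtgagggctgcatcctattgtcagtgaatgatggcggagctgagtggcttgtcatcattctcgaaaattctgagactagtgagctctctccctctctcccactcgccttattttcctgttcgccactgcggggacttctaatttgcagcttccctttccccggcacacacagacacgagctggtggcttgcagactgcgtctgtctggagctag
STMN3, chr20:63652717-63653016, minus strand: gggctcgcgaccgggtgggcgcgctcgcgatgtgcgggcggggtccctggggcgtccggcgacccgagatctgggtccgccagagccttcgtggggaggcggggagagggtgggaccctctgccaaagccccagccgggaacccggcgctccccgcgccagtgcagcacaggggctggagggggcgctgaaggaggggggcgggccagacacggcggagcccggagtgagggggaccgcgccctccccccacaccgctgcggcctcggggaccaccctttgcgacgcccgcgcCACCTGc
TUBB2B, chr6:3227604-3227903, minus strand: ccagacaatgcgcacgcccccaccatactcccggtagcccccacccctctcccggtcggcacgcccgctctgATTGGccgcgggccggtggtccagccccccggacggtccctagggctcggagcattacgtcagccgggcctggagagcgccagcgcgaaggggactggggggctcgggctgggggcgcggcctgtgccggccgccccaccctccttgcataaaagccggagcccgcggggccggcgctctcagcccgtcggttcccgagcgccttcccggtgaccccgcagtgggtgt
The windows of *GAP43* and *MAP2* held 2 matches each to CANNTG, that of *STMN3* 1 and that of *TUBB2B* none, where 68.7% of all 35116 windows hold at least 1. These 4 windows do not stand for the rest: 1 window of *DCX*, which had no call, held 3 matches and another window of *MAP2* held 0. Windows were looked up for 8 of the 10 genes. *STMN2* and *STMN4*, the latter with a call, were not looked up, and none was found for *MAPT*. Of all 13 windows found for 7 of the genes, 7 had a match to CANNTG. A match to CCAAT was present in 6 of the 13, and one to TATAAA in 3. A CCAAT match was present in *GAP43* and *TUBB2B* (34.6% of all windows), and TATAAA in none of the 4 (11.5% of all). GC content was 52.7% for *GAP43*, 52.3% for *MAP2*, 77.7% for *STMN3* and 74.7% for *TUBB2B*.

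Other genes of the microtubule system showed no calls for treatment either. Of 111 listed genes in 10 lists (other tubulins, tubulin-folding and modifying enzymes, other microtubule-associated proteins, collapsin response mediator proteins, growth cone proteins related to GAP43, severing proteins, kinases and motors), 106 were kept on their highest-mean probe set. None passed for treatment in limma, 58 of the 106 were lower with the inhibitor, against 48% of all genes, and the median difference was -0.0072, beside 0.0033 over all 12639 genes. The 1 gene with an unadjusted p under 0.05 was *TTLL5*, a tubulin polyglutamylase, at 0.17. Over all genes this share was 2.21%. Between replicates 3 and 1, 4 of the 106 were higher and 3 lower at an adjusted p under 0.05 in limma, against 2.82% and 2.18% of all genes. Of the 106, 72 had higher means in replicate 3, against 47% of all genes. On the same basis 2 of the 10 genes described here were higher and 0 lower, namely *STMN4* and *GAP43*. When 1 probe set per gene was fitted and adjusted by itself, 5 of the 10 passed, with *MAP2* (adjusted p = 0.045 in limma), *MAPT* (0.036) and *STMN3* (0.048) besides these, beside 1040 of 12639 genes.

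The 7 calls fell in 4 of the lists. Among the collapsin response mediator proteins, cytosolic partners of tubulin in growth cones, *DPYSL5* (0.45) and *CRMP1* (0.41) rose in replicate 3 and *DPYSL3* fell by 0.53 against replicate 1. A second, dimmer probe set of *DPYSL3* gave 0.62 and did not pass. The first measured 12.39, 12.04 and 11.87 in anti-miR-137 arrays and 12.36, 12.20 and 11.82 in control arrays, so that both arrays of replicate 3 were the lowest. Among kinases of microtubule-associated proteins, *CDK5R2*, a neuronal activator of the kinase CDK5, which phosphorylates tau, rose by 0.75 ± 0.071 (SE; adjusted p = 0.026 in limma). It gave 7.05, 7.58 and 7.84 in anti-miR-137 arrays and 7.09, 7.69 and 7.81 in control arrays, and was low in both arrays of replicate 1. The severing protein *FIGNL1* rose by 0.36, while *TTLL3*, a tubulin glycylase, fell by 0.50 and *HDAC6*, the tubulin deacetylase, fell by 0.35.

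None of the other tubulins, microtubule-associated proteins, growth cone proteins or motors passed on its highest-mean probe set. Dimmer probe sets of 5 of these genes did pass between replicates 3 and 1 in limma: those of *MAP9* (0.49), *KIF3A* (0.49), *MAPRE1* (0.49) and *TUBB4B* (0.38) were higher in replicate 3, and 1 of *MAP7D3* was lower (-0.41). *TUBB4B*, a widely expressed beta tubulin, gave 12.65, 12.77 and 13.03 in anti-miR-137 arrays and 12.69, 12.80 and 12.98 in control arrays, a difference of 0.33 between replicates 3 and 1 (adjusted p = 0.053 in limma). *TUBB4A*, a brain beta tubulin, gave -0.28 (adjusted p = 0.073). *TUBA1A* and *TUBA1B*, the main alpha tubulins of neurons and of many cells, gave 0.19 and 0.20 and did not pass. *MAP7D2* (0.34), *KIF2A*, a microtubule-depolymerising kinesin (0.34), and *GSK3B*, a tau kinase (0.30), did not pass either. The medians over the lists were 0.25 for the 5 collapsin response mediator proteins, 0.19 for the 7 other beta tubulins, 0.0097 for the 7 other alpha tubulins and 0.048 for the 20 motors, against 0.22 for the 10 genes described here and -0.012 over all genes.

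Genes of other kinds moved with the replicate number as well. Of 25 listed genes of G1/S and DNA replication, 23 were kept. Of these, 16 were higher in replicate 3 than in replicate 1 at an adjusted p under 0.05 in limma, against 2.82% of all genes. The number lower was 0, against 2.18% of all genes, and the median was 0.47, beside -0.012. This list too was chosen with earlier results of these data known, so its shares are descriptions. *CDC6*, a replication licensing factor, was higher by 0.88 and *RRM2*, a ribonucleotide reductase subunit, by 0.78. The mean log2 value of this list was 10.17, 10.30 and 10.65 in anti-miR-137 arrays and 10.09, 10.30 and 10.60 in control arrays of replicates 1, 2 and 3. Of 15 mesenchymal neuroblastoma markers, 12 were kept. Of these, 9 had lower and 3 had higher values in replicate 3, where 47% of all genes were higher. *YAP1*, a transcriptional coactivator, fell by 0.65 and *VIM*, the intermediate filament protein vimentin, fell by 0.40, and these 2 passed in limma. They were 2 of the 12 kept, where 2.18% of all genes were called lower. Dimmer probe sets of *YAP1* were lower too but did not pass. *LUM* (0.29), *SNAI2* (0.38) and *TWIST1* (0.029) were higher and did not pass. That list averaged 8.81, 8.58 and 8.55 in anti-miR-137 arrays and 8.70, 8.60 and 8.61 in control arrays. The 13 noradrenergic markers gave no call and a median of 0.053. The RNA integrity number was 9.5, 9.7 and 9.7 in the anti-miR-137 and 9.7, 9.8 and 9.7 in the control samples. Whether any of these plays a part in the difference of the 10 genes was not tested, and in bulk RNA fewer cells of a kind and less RNA per cell cannot be told apart.

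**Figure D5:**
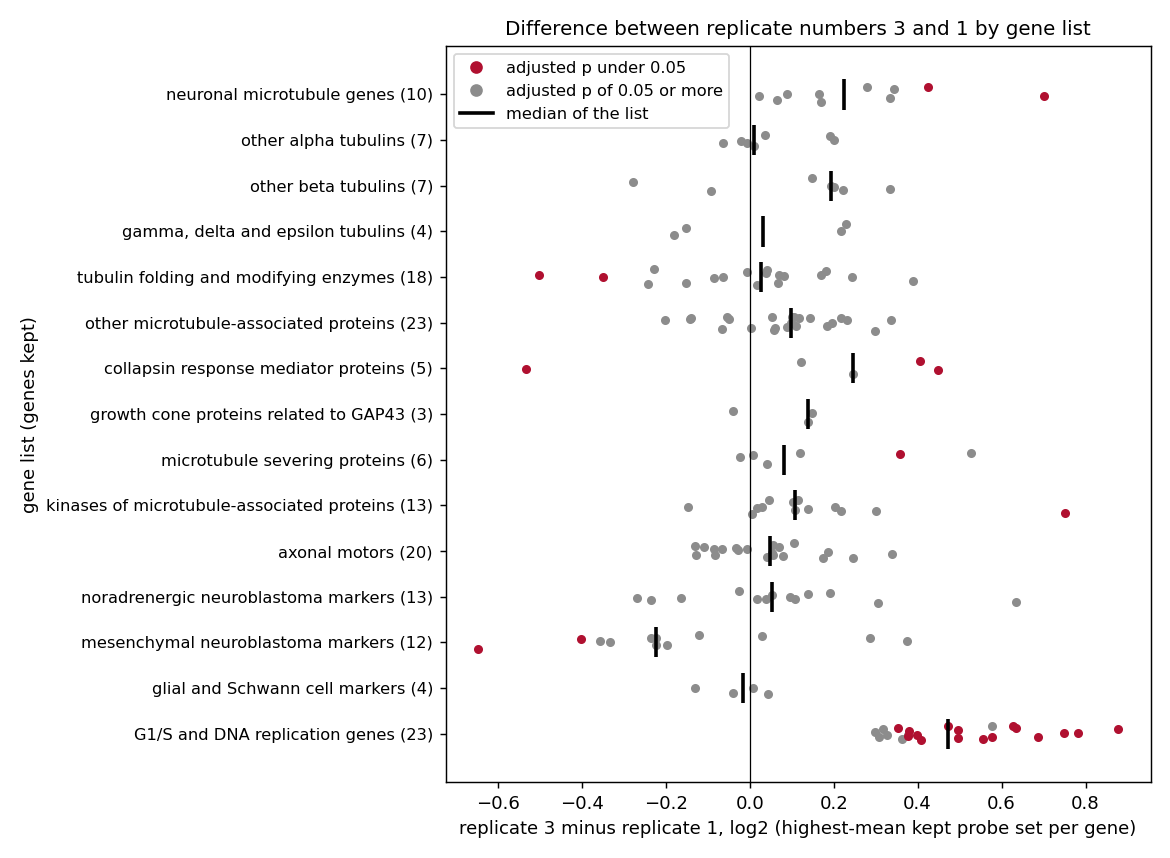
Difference between replicates 3 and 1 (x axis, log2 units) of the highest-mean kept probe set of each gene, by gene list (y axis, with the number of genes kept). Points are genes, in red at an adjusted p under 0.05, and black bars are list medians: 0.22 for the 10 neuronal microtubule genes, 0.47 for G1/S genes and -0.22 for mesenchymal markers.

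The 10 genes differed in how closely they followed each other over the 6 arrays, as a description of arrays that share numbers and treatments. The Pearson correlation of a gene's highest-mean probe set with the mean of the other 9 was 0.94 for *MAP2*, 0.93 for *TUBB2B*, 0.91 for *STMN4*, between 0.80 and 0.89 for *TUBB3*, *MAPT*, *DCX*, *STMN3* and *GAP43*, 0.46 for *MAP1B* and 0.012 for *STMN2*. For *MAP1B* this probe set was low in the anti-miR-137 array of replicate 2, a gap that its other probe sets did not show. The mean deviation of the 10 was -0.15, -0.12 and 0.13 in the anti-miR-137 arrays of replicates 1, 2 and 3 and -0.075, 0.040 and 0.17 in the control arrays. Among 12629 other genes, the 6 whose values were most like this profile were *MTDH*, *SUZ12*, *ASCC3*, *GSS*, *PYM1* and *MYH15*, with correlations of 0.99 over 6 arrays, and 88 genes exceeded 0.95. Their own differences between replicates 3 and 1 ran from 0.10 for *GSS* to 0.55 for *MYH15*.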

How the data were processed

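RNA of 6 SH-SY5Y samples (100 ng each, RNA integrity numbers 9.5 to 9.8) was biotin-labelled and hybridised to Affymetrix arrays, per the labels' protocols. The deposited values are log2 intensities per probe set that the authors made with RMA in R 3.0.1, per the submitters' processing notes. Array medians lay between 6.39 and 6.43. The number of arrays limits the precision. Scanner files were not used here.

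Of 49495 probe sets, 102 were controls, 45278 had 1 symbol in the platform annotation, 1333 several and 2782 none. By gene identifier 45208 were found in RefSeq (GRCh38.p14), and no symbol changed. The 29636 probe sets whose mean reached the 40th percentile entered linear models in limma (version 3.58.1, under R 4.3.3), with moderated variances and Benjamini-Hochberg adjustment over all of them, for treatment without a block and for replicate number with group as a term. The code was tested on simulated data in which most probe sets had no differences between replicate numbers. That test does not show how the treatment fit behaves where such differences are common. Probe sets within a gene are numbered by falling mean; values in full are given for the highest-mean one and for those that passed or whose groups did not overlap, with others given where probe sets of a gene disagreed. Of the other listed genes, those lowest in the F test over replicate numbers and the lowest in treatment p were eligible to be named, besides all that passed; dimmer probe sets of *MAP9*, *KIF3A*, *MAPRE1*, *TUBB4B* and *MAP7D3*, and *HAND2*, *GATA3* and *DBH* were named outside this rule, after their values were seen. The members and lists were chosen with earlier results of these data known.

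Deviations from group means correlated at 0.51, 0.037 and 0.62 between the arrays of replicates 1, 2 and 3, so not every pair exceeded 0.1 and the numbers were not treated as pairs. Alternatives covered the filter, probe set choice, normalization, variance model, covariates and leaving out each array.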

Additional observations from a re-analysis of the deposited data

How the results depend on the processing

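For treatment, no probe set passed under any alternative, among the 32 or among all. With the replicate block the count was 0 (1776 at an unadjusted p under 0.05 in limma). For replicate 3 minus replicate 1, where 5 of the 32 passed, some settings tested other numbers of features. With no filter 0 of 38 passed, beside 3 of 49393, and with the 60th percentile filter 13 of 28, beside 3113 of 19757. With 1 probe set per gene 5 of 10 genes passed, beside 1040 of 12639, and with the mean per gene 2 of 10, beside 1128 of 12639. Without suffixes a, s or x the count was 0 of 3, beside 265 of 5274. Without s or x, a setting not planned, it was 4 of 20, beside 1034 of 19390. Of 32 probe sets, the count was 2 with quantile normalization, beside 1439 of all 29636, 4 with cyclic loess, beside 1532, and 7 with median centring, beside 1734. It was 15 with the trended robust prior, beside 4643, 13 with array weights, beside 2776, and 0 with the RNA integrity number, beside 0. With no group term 9 passed, beside 2088. In arrays of replicates 1 and 3 only, chosen after seeing the data, 10 passed, beside 2995. Leaving out 1 array gave 0 to 10. Causes were not tested.

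Over all kept probe sets, the count for replicate 3 minus replicate 1 was 1459, with 3 for no filter, 3113 for the 60th percentile, 265 without suffixes, 4643 with the trended prior, 2776 with array weights, 0 with the integrity number and 2995 in replicates 1 and 3 only (0 to 2995 leaving out 1 array). The F test called 3, with 0 (no filter), 1713 (60th percentile), 320 (1 probe set per gene), 408 (mean per gene), 50 (without suffixes), 0 (quantile), 3482 (trended prior), 644 (array weights), 0 (integrity number) and 593 (no group term), and 0 to 1216 leaving out 1 array. Replicate 2 minus replicate 1 called 0, with 85 (60th percentile), 4 (1 per gene), 1 (without suffixes s or x), 501 (trended prior) and 1 (no group term), and 0 leaving out any array. Replicate 3 minus replicate 2 called 1, with 0 (no filter), 106 (60th percentile), 9 (mean per gene), 2 (without suffixes), 0 (quantile), 0 (cyclic loess), 885 (trended prior), 0 (integrity number) and 2 (no group term), and 0 leaving out any array.

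Signs turned for small differences. With the integrity number as covariate, treatment was 0.040 for *TUBB3*, 0.023 for *TUBB2B*, 0.0033 for *MAP2* and 0.097 for *STMN3*, and *STMN2* was -0.038 between replicates 3 and 1 (-0.0064 with the mean per gene). Leaving out 1 array in turn, treatment ran from -0.097 to 0.024 for *TUBB3*, -0.067 to 0.027 for *TUBB2B*, -0.26 to 0.0038 for *MAPT*, -0.15 to 0.066 for *STMN3* and -0.22 to 0.027 for *GAP43*. All of the highest values came without the anti-miR-137 array of replicate 1 (*TUBB3*, *STMN3*) or the control array of replicate 3 (*TUBB2B*, *MAPT*, *GAP43*). Replicate 3 minus replicate 1 ran from -0.088 to 0.22 for *MAP1B*, lowest without the control array of replicate 1, and from -0.028 to 0.072 for *STMN2*. With 3 arrays a group and no block, the treatment intervals of the 32 reached a median of 0.23 to either side. Smaller differences could not be resolved in that fit. With the replicate block 1776 of all kept probe sets had an unadjusted p under 0.05 in limma, beside 744 without it. Intervals with the block are not given here.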
